A study of Mus musculus with 18 samples.

Results

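The comparison described here asks whether the origin of the DNA-binding domain of a Foxa protein goes with a difference in where the protein is found on chromatin, when the N-terminal domain and the antibody are held constant. It uses 4 of the 18 samples of the series, of which 9 have a peak list. The 4 lists together hold 17313 peaks. Peaks that overlapped by at least 1 bp were merged into 9697 regions, out of 24999 regions made in the same way from the 60003 peaks of all 8 Foxa lists. The rule takes its members from the labels of the constructs and uses no measured value, although the comparison itself was proposed with earlier results of these data known.

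All libraries were chromatin immunoprecipitation sequencing (ChIP-seq) of induced hepatocyte-like (iHep) cells. These were C57BL/6 mouse embryonic fibroblasts from embryos of 13.5 days post coitum, infected with Hnf4alpha, a nuclear receptor of liver cells, and with a domain-swapped Foxa protein. On one side of the comparison stand 2 constructs with the DNA-binding domain of Foxa3, in which the C-terminal domain was taken from Foxa1 (Foxa3-C1) or from Foxa2 (Foxa3-C2). On the other side stand Foxa1 (Foxa1-N3) and Foxa2 (Foxa2-N3), each given the N-terminal domain of Foxa3.

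All 4 cell populations share the introduced Hnf4alpha, the Foxa3 N-terminal domain and precipitation with a Foxa3 antibody. The labels do not name the part of Foxa3 that this antibody recognises. Foxa3-C1 and Foxa1-N3 both end in the Foxa1 C-terminal domain, and Foxa3-C2 and Foxa2-N3 both end in that of Foxa2, so that each of these matched pairs differs in the DNA-binding domain alone. Each construct had 1 library, the labels name no replicate culture, and the level of each introduced protein was not used here. A construct, its culture and its library therefore cannot be told apart.

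Foxa proteins are forkhead transcription factors. Their DNA-binding domain is a winged helix that resembles a linker histone, and they are known as pioneer factors because they can bind sites in closed chromatin and make them accessible to other factors. In the developing liver Foxa1 and Foxa2 act early and Foxa3 appears later, and any of the 3 can convert fibroblasts to hepatocyte-like cells together with Hnf4alpha. The flanking N- and C-terminal domains hold transactivation functions and differ more between the 3 proteins than the forkhead domain does.

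The lists differed widely in length, and the order of length did not follow the DNA-binding domain. Foxa3-C1 had 7533 peaks and Foxa3-C2 had 3594, against 956 for Foxa1-N3 and 5230 for Foxa2-N3. The 2 lists of the Foxa1/2 side thus lie below and above Foxa3-C2. Mean log2 peak number was 12.35 ± 0.75 (SD, n = 2) for the Foxa3 domain and 11.13 ± 1.73 (SD, n = 2) for the Foxa1/2 domains, a difference of 1.22 with a two-sided exact permutation p of 0.667. With 2 lists a side this test has 6 assignments and cannot go below 0.333. Without Foxa1-N3 the difference in log2 peak number was -0.0074. In the pair with the Foxa1 C-terminus the Foxa3-domain list was 7.88 times as long, and in the pair with the Foxa2 C-terminus it was 0.687 times as long. Read depth is unknown from peak lists, so the main counts of regions below are given both for all peaks and with every list cut to its 956 strongest peaks, as many as Foxa1-N3 has. Strength means the rank of the score that the authors deposited, whose kind is not stated.

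Most sites of the shorter lists lay inside the longer ones. At least one of the other 3 lists held a peak at 95.4% of the 956 Foxa1-N3 sites (95% Wilson interval 93.9 to 96.6). The share was 88.1% for Foxa3-C2, 71.7% for Foxa2-N3 and 57.3% for Foxa3-C1. Regions found in a single list numbered 3213 for Foxa3-C1, 1479 for Foxa2-N3, 427 for Foxa3-C2 and 44 for Foxa1-N3, and made up 53.2% of all regions. All 4 lists held a peak in 683 regions, 7.04% of the total. These intervals cover counting error only, and neighbouring peaks of a library are not independent.

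Regions that followed the DNA-binding domain were few and lopsided when all peaks were used. Both Foxa3-domain lists and neither Foxa1/2-domain list held a peak in 714 of the 9697 regions, 7.36% of those tested. Both Foxa1/2-domain lists and neither Foxa3-domain list held one in 33 regions, 0.34% of those tested. Leaving out Foxa1-N3 gave 764 regions with both Foxa3-domain lists alone and 1512 with Foxa2-N3 alone, but a side with 1 list is then held to a looser rule, which by itself raises its count. Of the 8 combinations that joined some but not all lists of both sides, 2 were larger: 1518 regions lacked a peak in the shortest list alone, and 1219 were shared by the 2 longest lists, Foxa3-C1 and Foxa2-N3, which differ in both the DNA-binding and the C-terminal domain. The next, Foxa3-C2 with Foxa2-N3, held 174 regions, and the rest 103 or fewer.

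With the lists cut to 956 peaks each, the lopsidedness was nearly gone. Of 1972 regions, 129 were found with both Foxa3-domain constructs alone, 6.54% of those tested, and 102 with both Foxa1/2-domain constructs alone, 5.17% of those tested. The 4 other pairings of lists gave fewer regions: 77 for Foxa3-C2 with Foxa2-N3, 43 for Foxa3-C1 with Foxa2-N3, 40 for Foxa3-C1 with Foxa1-N3 and 30 for Foxa3-C2 with Foxa1-N3. All 4 lists shared 271 regions, 13.7%. The counts for the pairs of equal DNA-binding side were the 2 highest among the 6 combinations of 2 lists. No test was run on them, since 2 lists a side allow no permutation p below 0.333.

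**Figure D1:**
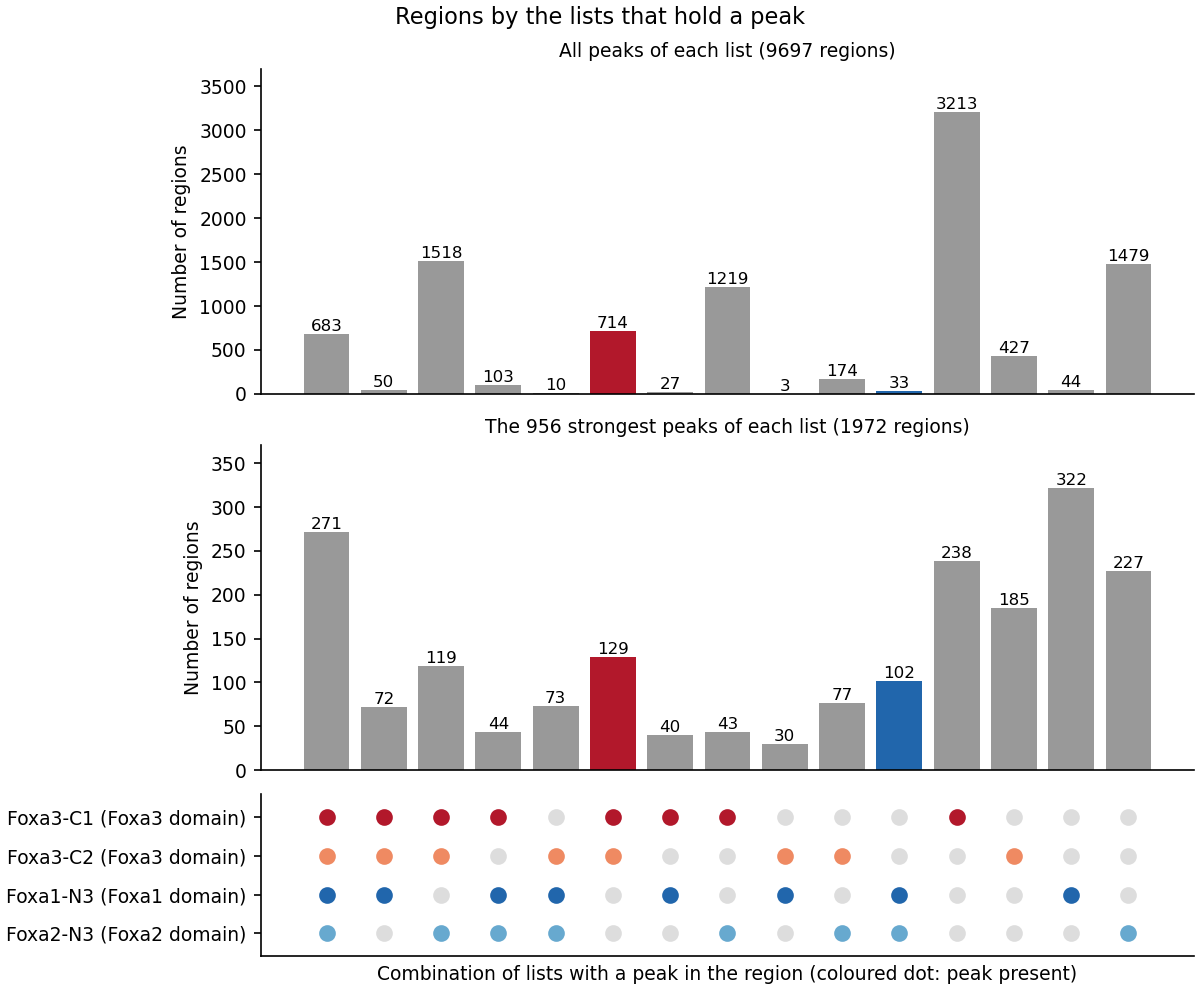
Bars give the number of merged regions for each combination of lists that hold a peak (dots below), for all peaks of each list (top, 9697 regions) and for the 956 strongest peaks of each list (middle, 1972 regions). Regions of both Foxa3-domain lists alone (red) fall from 714 to 129 and those of both Foxa1/2-domain lists alone (blue) rise from 33 to 102 when the lists are cut to equal length.

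Pairwise sharing at equal length was highest between the 2 constructs with the Foxa3 domain. Of the 956 strongest Foxa3-C1 peaks, 591 met one of the 956 strongest Foxa3-C2 peaks (61.8%, Wilson interval 58.7 to 64.8). The second highest share joined the sides: 540 of 956 Foxa3-C2 peaks met Foxa2-N3 (56.5%, 53.3 to 59.6), a pair with the same C-terminal domain. The 2 Foxa1/2-domain lists came next, with 492 of the Foxa1-N3 peaks met by Foxa2-N3 (51.5%, 48.3 to 54.6). The shares were lower for Foxa3-C1 with Foxa2-N3 (49.9%), Foxa3-C2 with Foxa1-N3 (46.7%) and Foxa3-C1 with Foxa1-N3 (44.7%), although this last pair has the same C-terminal domain.

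Leaving out the short Foxa1-N3 list allowed 3594 peaks to be compared in each of the other 3. Foxa3-C1 then met Foxa3-C2 in 61.6% of its peaks (Wilson interval 60.0 to 63.2), Foxa3-C2 met Foxa2-N3 in 56.5% (54.9 to 58.1) and Foxa3-C1 met Foxa2-N3 in 55.7% (54.1 to 57.3). The 2 Foxa3-domain constructs again shared more with each other than either did with Foxa2-N3. The margin rests on 1 list with the Foxa2 domain.

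Sharing fell steadily with rank in every list. Of the 239 strongest Foxa3-C1 peaks, 98.7% met the full Foxa3-C2 list, 91.6% the full Foxa2-N3 list and 66.5% the full Foxa1-N3 list. Of the 3709 weakest Foxa3-C1 peaks, the shares were 18.3% for Foxa3-C2, 30.04% for Foxa2-N3 and 2.56% for Foxa1-N3. At ranks beyond 956 Foxa3-C1 peaks were thus met more often by Foxa2-N3, the longer list, than by Foxa3-C2, the list with the same DNA-binding domain. From the other side, all 239 strongest Foxa2-N3 peaks met Foxa3-C1 and 97.5% met Foxa3-C2, whereas 77.0% met Foxa1-N3. The strongest sites of the Foxa2-domain construct were therefore nearly all present with the Foxa3 domain.

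**Figure D2:**
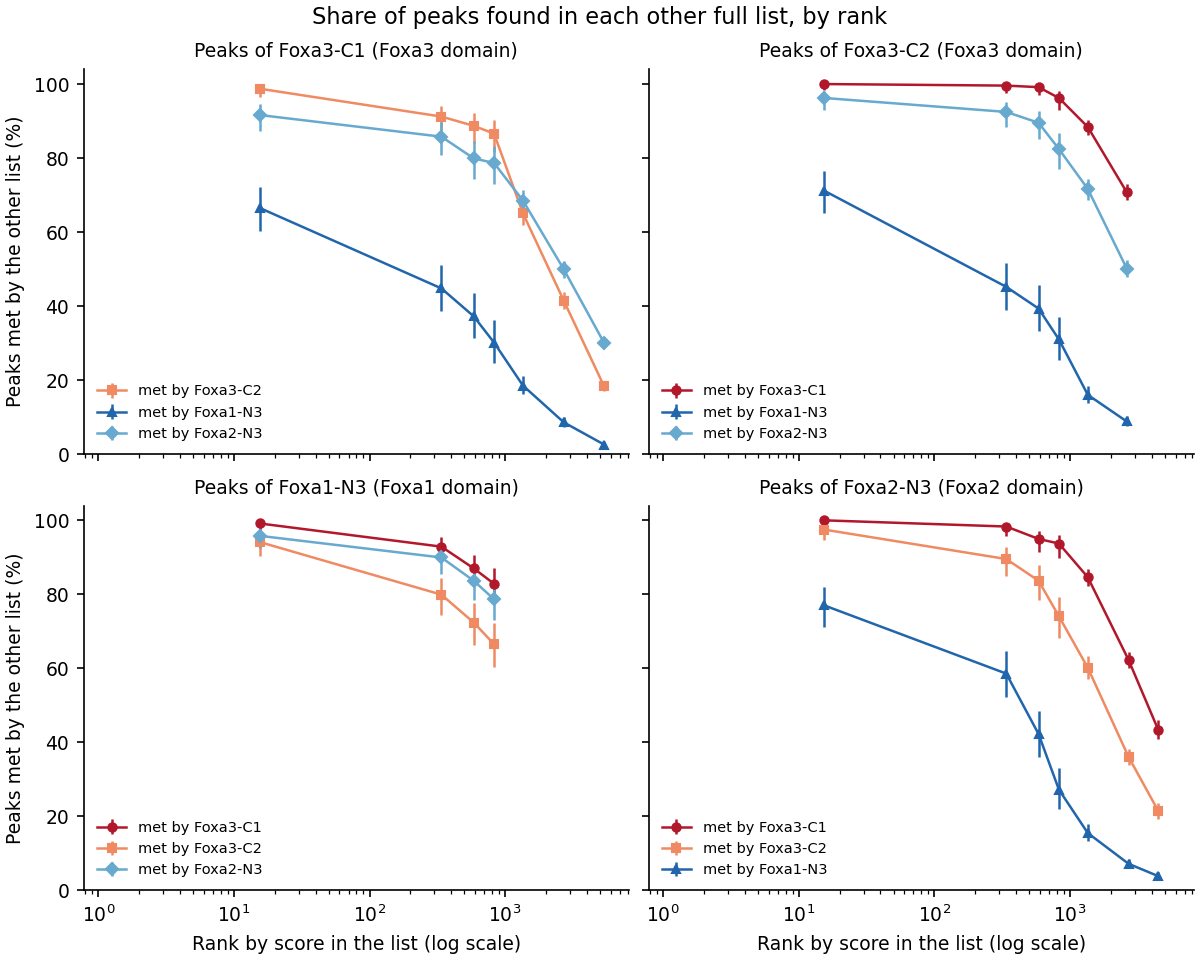
Each panel takes the peaks of one list in bins of rank by score (x axis, log scale, rank 1 strongest, points at the geometric middle of a bin) and gives the percentage that meets a peak of each other full list (y axis, bars are 95% Wilson intervals). The strongest 239 peaks of Foxa2-N3 are met by Foxa3-C1 in 100% and the weakest bin in 43.4%, and the curves of the shortest list, Foxa1-N3, lie lowest in all 3 panels that show them.

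The ranks of regions on one side alone were taken from the full lists of that side. The 714 regions of the Foxa3 domain alone had a median rank of 3286.5 among the 7533 Foxa3-C1 peaks and 2323 among the 3594 Foxa3-C2 peaks, and 27 of them lay within the strongest 956 of both lists. The 33 regions of the Foxa1/2 domains alone had a median rank of 615 of 956 in Foxa1-N3 and 2786 of 5230 in Foxa2-N3. Foxa1-N3 has 956 peaks in all, so all 33 lay within its strongest 956 by construction. Within the strongest 956 of Foxa2-N3 lay 3 of them. That count rests on Foxa2-N3 alone and is unlike the 27, for which both lists could fail. No share over all regions was computed for either count. As a base in peaks, 2967 of all 7533 Foxa3-C1 peaks met the full Foxa3-C2 list. Of the 956 strongest Foxa3-C1 peaks, 591 met one of the 956 strongest of Foxa3-C2. For Foxa2-N3 the cut keeps 956 of its 5230 peaks.

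Most regions that seemed to belong to one side at equal length had a weaker peak on the other. Of the 129 regions of the Foxa3 domain alone, 103 held a peak of the full Foxa2-N3 list (79.8%, Wilson interval 72.1 to 85.9) at a median rank of 1915. Foxa1-N3 could add none, because its list was already used in full. Of the 102 regions of the Foxa1/2 domains alone, 97 held a peak of the full Foxa3-C1 list (95.1%, 89.0 to 97.9; median rank 1800) and 73 one of the full Foxa3-C2 list (71.6%, 62.2 to 79.4; median rank 1983). No peak in either full list of the other side was found for 26 of the 129 and for 3 of the 102.

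Within this comparison, a few strong regions had a peak in both Foxa3-domain lists and in neither Foxa1/2-domain list. The region with the best mean rank was chr5:5159987-5160640 (mm9), at rank 105 in Foxa3-C1 and rank 97 in Foxa3-C2. It had no peak in Foxa1-N3, in Foxa2-N3 or in any of the 4 Foxa lists outside this comparison. The region chr3:60701544-60702123, at ranks 372 and 380, was likewise absent from the other 6 Foxa lists. Next to these, chr11:64493558-64494762 (ranks 55 and 223), chr4:33985689-33986338 (92 and 282), chr10:111613520-111614132 (479 and 310) and chr10:111481692-111482274 (259 and 637) had peaks in all 4 of the outside lists. These 4 regions were thus found in every Foxa list but Foxa1-N3 and Foxa2-N3. The remaining named regions, chr6:137839985-137840550 (168 and 230) and chr1:172382327-172382840 (212 and 697), had a peak in 2 of the outside lists each. For the former these were Foxa3-N1 and Foxa1-C3, and for the latter Foxa3-N2 and Foxa2-C3. No named region of this class had a peak in an outside Foxa3-domain list without one in an outside Foxa1/2-domain list.

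Among the regions of the Foxa1/2 domains alone none stood within the first 239 ranks of both lists. The best was chr19:8040936-8041436, at rank 471 in Foxa1-N3 and 495 in Foxa2-N3, followed by chr10:100989849-100990393 at ranks 615 and 374. The region chr9:63261941-63262444 stood at rank 90 in Foxa1-N3 but at 1357 in Foxa2-N3, and chrX:49975427-49976051 at 122 and 1012. All 8 named regions of this class had a peak in at least 2 of the 4 outside lists, and none met the Hnf4alpha-antibody library.

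At the 683 regions present in all 4 lists, ranks could be compared without regard to presence. Each region was ranked again from 1 to 683 in each list. Both Foxa3-domain ranks were better than both Foxa1/2-domain ranks in 131 regions, 19.2% of those tested, and the reverse held in 158, 23.1% of those tested. The sides overlapped in the others. With 2 lists a side, each class is 1 of the 6 assignments of lists. Ranks unrelated to the side would thus already put 1 in 6 regions in each class. The excess over this was not tested. The regions with the best mean rank over the 4 lists are given as a description, since that choice favours like ranks. The region chr4:3734061-3734959 stood at rank 2 in Foxa3-C1, 1 in Foxa3-C2, 3 in Foxa1-N3 and 1 in Foxa2-N3. The region chr14:47449566-47450520 stood at 1, 3, 1 and 3, and chr17:35848385-35849167 at 3, 2, 2 and 5. All 10 regions with the best mean rank had peaks in the 4 outside lists as well.

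Over the 683 regions the ranks were most alike between the 2 Foxa3-domain constructs, with a Spearman correlation of 0.70. The correlation was 0.48 between Foxa1-N3 and Foxa2-N3 and 0.39 to 0.54 across the sides. Foxa2-N3 ranked regions more like Foxa3-C2 (0.54) and Foxa3-C1 (0.53) than like Foxa1-N3 (0.48). These values describe regions of the same genome, share chromatin and are no independent replicates. The difference in rank between the sides was taken within each matched pair. It had the same sign in both pairs in 396 of 683 regions (58.0%), of which 193 were ranked better with the Foxa3 domain and 203 with the Foxa1/2 domains. The 2 differences had a Spearman correlation of 0.20 across regions. With the pairs crossed, Foxa1-N3 against Foxa3-C2 and Foxa2-N3 against Foxa3-C1, the correlation was 0.23, no lower than with matched C-terminal domains.

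The widest gap in favour of the Foxa3 domain was at chr12:55838817-55839895. Its re-ranked positions were 26 in Foxa3-C1 and 6 in Foxa3-C2, against 582 in Foxa1-N3 and 635 in Foxa2-N3. This region also met a peak of the library precipitated with an Hnf4alpha antibody, and so did the fifth widest, chr11:87239944-87240849 (positions 40, 74, 625 and 259). The part of that overlap in the rank difference was not tested. The second, chr15:94491040-94491711, stood at 64 and 141 against 645 and 588, the third, chr10:92696923-92697509, at 144 and 173 against 646 and 561, and the fourth, chr5:49511343-49512080, at 89 and 122 against 410 and 657. None of these 3 met the Hnf4alpha-antibody library, and each had a peak in all 4 Foxa lists outside this comparison. Of those outside lists, chr12:55838817-55839895 had a peak in Foxa3-N2 and Foxa2-C3 only, and chr11:87239944-87240849 in none.

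In the opposite direction the widest gap was at chr13:16361441-16361991, at positions 678 and 603 in the Foxa3-domain lists and 245 and 65 in Foxa1-N3 and Foxa2-N3. It was followed by chr6:134683928-134684539 (523 and 665 against 67 and 241) and chr6:98654841-98655540 (517 and 577 against 49 and 201). The regions chr15:27352693-27353229 (643 and 682 against 141 and 387) and chr19:12315299-12315879 (604 and 477 against 175 and 156) completed the 5. None of the 5 met the Hnf4alpha-antibody library. All 5 had peaks in Foxa3-N1, Foxa3-N2 and Foxa2-C3, but only chr6:98654841-98655540 and chr19:12315299-12315879 had one in Foxa1-C3. These gaps were used to choose the regions and are given as a description.

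**Figure D3:**
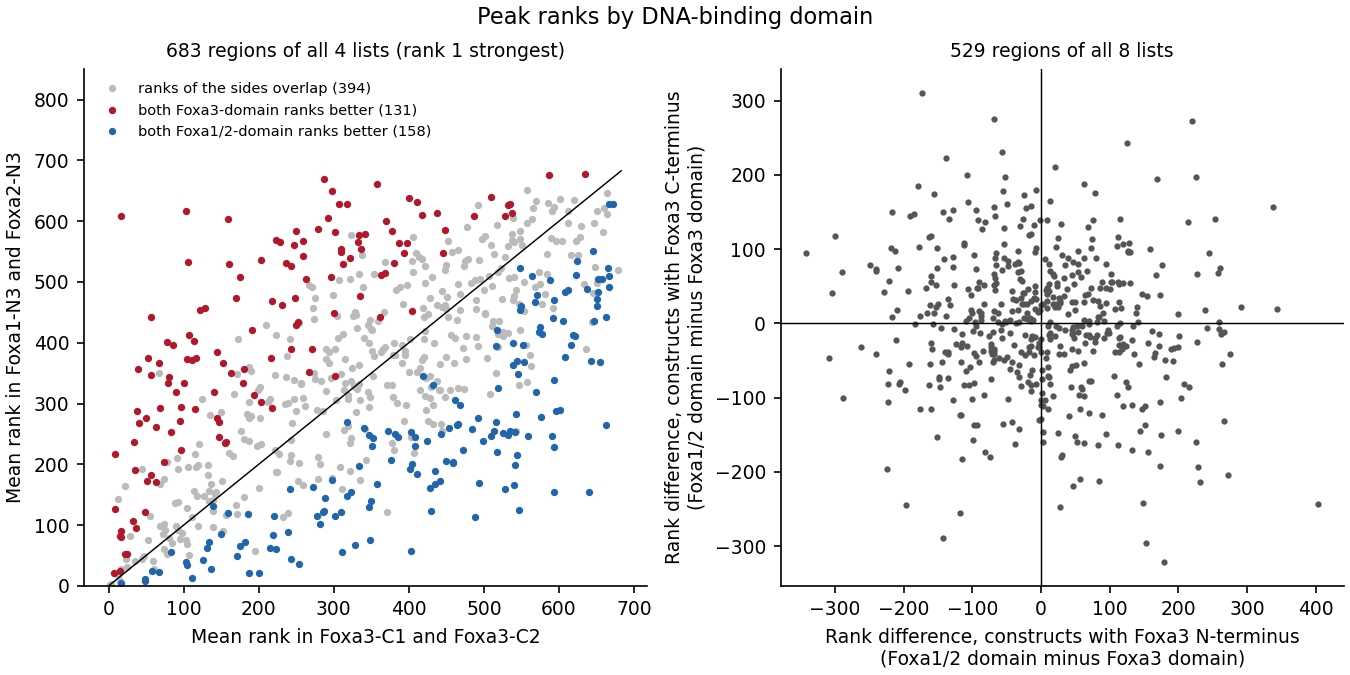
Left, mean rank in the 2 Foxa1/2-domain lists (y axis) against mean rank in the 2 Foxa3-domain lists (x axis) for the 683 regions of all 4 lists, with regions whose sides do not overlap in colour (131 red, 158 blue) and the line of equal rank. Right, for the 529 regions of all 8 Foxa lists, the rank difference between the domains in the constructs with the Foxa3 C-terminus (y axis) against that in the constructs with the Foxa3 N-terminus (x axis), with no trend in the same direction (Spearman correlation -0.09).

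The same DNA-binding domains were also placed in 4 constructs with the Foxa3 C-terminal domain, whose lists had no part in choosing the regions. Foxa3-N1 and Foxa3-N2 carry the Foxa3 domain with the N-terminal domain of Foxa1 or Foxa2, and Foxa1-C3 and Foxa2-C3 carry the Foxa1 or Foxa2 domain. They were precipitated with antibodies to Foxa1 or Foxa2, following the N-terminal domain. Here 529 regions had a peak in all 8 lists. The rank difference between the domains correlated with a Spearman coefficient of -0.09 and a Pearson r of -0.11 across these regions between the 2 sets of constructs. Of 96 regions ranked better by both Foxa3-domain lists with the Foxa3 N-terminus, 43 were ranked better by the mean of Foxa3-N1 and Foxa3-N2 (44.8%, Wilson interval 35.2 to 54.7), against 51.2% of all 529. Of 122 regions ranked better by both Foxa1/2-domain lists, 73 were ranked better by Foxa3-N1 and Foxa3-N2 (59.8%, 51.0 to 68.1). The direction seen with the Foxa3 N-terminus was thus not repeated in the constructs with the Foxa3 C-terminus.

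Presence in these 4 lists did not follow the DNA-binding domain either. Of the 714 regions of the Foxa3 domain alone, 46.4% had a peak in Foxa3-N1 and 39.8% in Foxa1-C3 (Wilson interval 36.2 to 43.4), against 50.7% and 34.9% of all 9697 regions. They had a peak in Foxa3-N2 in 57.8% and in Foxa2-C3 in 61.1%, against 59.8% and 64.4% of all regions. With Foxa3-N1 cut to the length of Foxa1-C3, 4807 peaks, its share was 31.9% and lay below that of Foxa1-C3. Over all regions the cut list had a share of 38.4%, above that of Foxa1-C3. Both Foxa3-domain lists of this set and neither of the others held a peak in 14 of the 714, and the reverse held in 18. No peak in any of the 4 lists was found for 164 of the 714 (23.0%), against 22.8% of all regions.

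The 33 regions of the Foxa1/2 domains alone had a peak in Foxa3-N1 in 26 cases (78.8%, 62.2 to 89.3) and in Foxa1-C3 in 7 (21.2%, 10.7 to 37.8). With Foxa3-N1 cut to 4807 peaks the share was 69.7% (52.7 to 82.6). Over all 9697 regions the shares were 50.7% in Foxa3-N1, 38.4% with that list cut, and 34.9% in Foxa1-C3. The 33 regions were therefore found more often with the Foxa3 domain than with the Foxa1 domain in this pair, the opposite of how they were chosen. In the pair with the Foxa2 N-terminus the shares were 63.6% in Foxa3-N2 and 60.6% in Foxa2-C3. For the 102 regions chosen at equal length they were 93.1% in Foxa3-N1, 64.7% in Foxa1-C3, 91.2% in Foxa3-N2 and 90.2% in Foxa2-C3. Over all 1972 regions of equal length they were 84.3%, 68.5%, 81.6% and 84.7%. Foxa1-C3, the shortest of these 4 lists, held the fewest in either case. With Foxa3-N1 cut to 4807 peaks, its share was 87.3% of the 102 and 77.2% of the 1972. The excess over Foxa1-C3 was then 22.5 points for the 102 and 8.67 points for the 1972. With Foxa3-N2 cut to the length of Foxa2-C3, the excess over Foxa2-C3 was 0 and -6.19 points in the same order.

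Some one-sided regions of equal length had no peak in the outside lists. None of the 4 outside lists had a peak in 16 of the 129 regions of the Foxa3 domain alone (12.4%, Wilson interval 7.78 to 19.2). The count was 1 of the 102 regions of the Foxa1/2 domains alone (0.98%, 0.17 to 5.35), and 114 of all 1972 (5.78%). These intervals cover counting error over regions of single libraries, and no test over samples was run, so no difference between the classes is claimed.

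**Figure D4:**
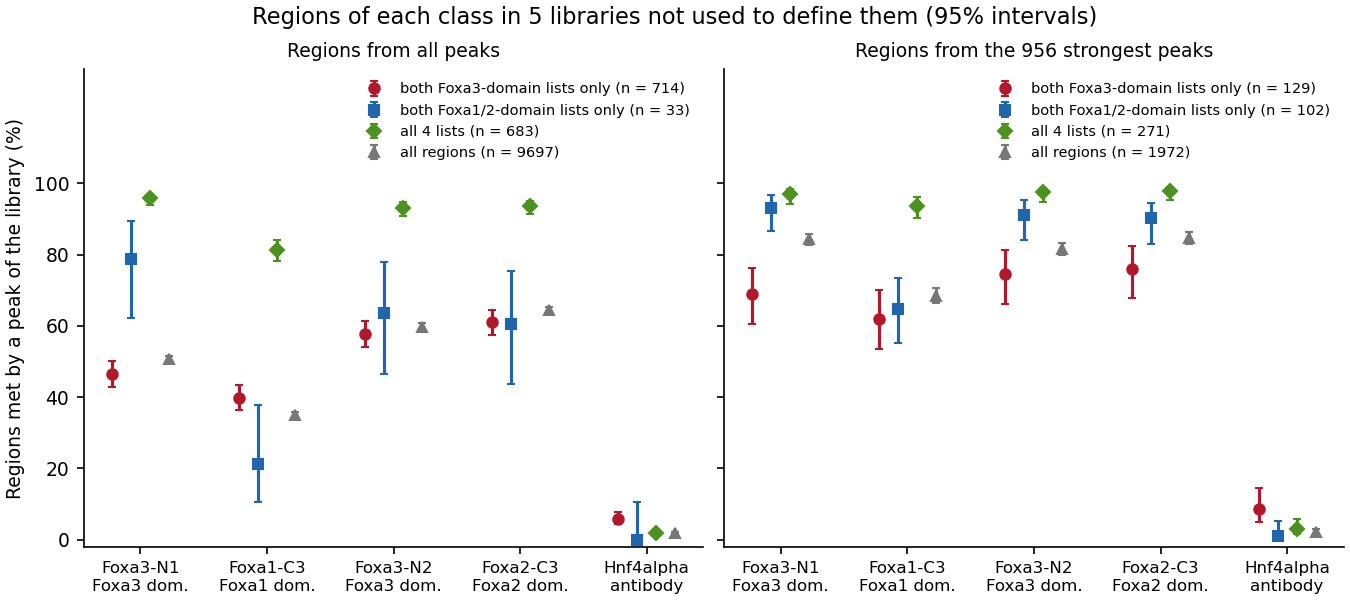
Percentage of regions (y axis, with 95% Wilson intervals) that meet a peak of 5 libraries not used to define them (x axis), by class of region, for regions made from all peaks (left) and from the 956 strongest peaks (right). Regions of both Foxa3-domain lists alone (red) meet Foxa3-N1 in 46.4% and Foxa1-C3 in 39.8%, and regions of both Foxa1/2-domain lists alone (blue) in 78.8% and 21.2%.

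A further library of the series, titled 4a3_DA1 and labelled as infected with Foxa1 and Hnf4alpha, was precipitated with an Hnf4alpha antibody and has 698 peaks. Its title and its labels do not name the same construct, so it is called here by its antibody. It met 41 of the 714 regions of the Foxa3 domain alone (5.74%, Wilson interval 4.26 to 7.70), 12 of the 683 regions of all 4 lists (1.76%, 1.01 to 3.05) and 177 of all 9697 regions (1.83%). It met 0 of the 33 regions of the Foxa1/2 domains alone, which allows a share of up to 9.09% (3 counts of the 33), with a Wilson upper limit of 10.4%. At equal length it met 11 of 129 (8.53%, 4.83 to 14.6) against 1 of 102 (0.98%, 0.17 to 5.35). The 11 regions had a median width of 1192 bp, against 612 bp for the other 118. Regions of the Foxa3 domain alone thus met this library in a larger share than all regions did. Without such sites 673 of the 714 and 118 of the 129 remained.

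Peak widths had the order of the list lengths and did not separate the DNA-binding domains. Median width was 455 bp in Foxa3-C1, 361 bp in Foxa3-C2, 307 bp in Foxa1-N3 and 407 bp in Foxa2-N3, the same order as the numbers of peaks. The narrowest peaks had the same order, at 325, 272, 242 and 297 bp. The side means were 408 ± 66.5 bp and 357 ± 70.7 bp (SD, n = 2 each; two-sided exact permutation p = 0.667). The 2 Foxa1/2-domain values enclose that of Foxa3-C2, and the difference of 51 bp between the sides was 1 bp without Foxa1-N3.

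At the 683 regions of all 4 lists, where each list has a peak at the same place, the order was unchanged. Median widths were 578, 429, 319 and 520 bp in Foxa3-C1, Foxa3-C2, Foxa1-N3 and Foxa2-N3. The Foxa3-C1 peak was wider than the Foxa1-N3 peak in 678 of 683 regions, with a median ratio of 1.74. In the other matched pair the Foxa3-C2 peak was wider than the Foxa2-N3 peak in 136 of 683, with a median ratio of 0.844. Between the 2 lists with the Foxa3 domain, the Foxa3-C1 peak was wider in 653 regions, with a median ratio of 1.33. The 2 matched pairs therefore went in opposite directions over the same regions.

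Peaks wider than 1000 bp numbered 99 in Foxa3-C1, 15 in Foxa3-C2, 1 in Foxa1-N3 and 22 in Foxa2-N3. As shares of each list these were 1.31%, 0.417%, 0.105% and 0.421% in the same order. The widest of Foxa3-C1, chr19:5839516-5845679, covered 6164 bp and stood at rank 365. The widest of Foxa3-C2, chr19:5840662-5845693, covered 5032 bp, and the 2 widest of Foxa2-N3, at 2440 and 2007 bp, lay in the same stretch. All 4 met the Hnf4alpha-antibody library. The widest of Foxa1-N3 was chr6:113960678-113961822 at 1145 bp and rank 18, and it did not meet that library.

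Clustering had the order of the list lengths too when all peaks were used. Another peak of the same list lay within 10 kb for 28.4% of Foxa3-C1 peaks, 17.1% of Foxa3-C2 peaks, 4.60% of Foxa1-N3 peaks and 22.4% of Foxa2-N3 peaks. The side means differed by 9.24 points, and by 0.35 points without Foxa1-N3. At 956 peaks each, both Foxa3-domain lists stood above both others at this distance. The shares were 8.05% (Wilson interval 6.49 to 9.95) for Foxa3-C1 and 6.69% (5.28 to 8.46) for Foxa3-C2, against 4.60% (3.45 to 6.12) for Foxa1-N3 and 6.07% (4.72 to 7.76) for Foxa2-N3. The sides differed by 2.04 percentage points, with the smallest two-sided exact permutation p that 2 lists a side can give, 0.333, and 0.667 after Benjamini-Hochberg adjustment over the 5 measures tested. The intervals of Foxa3-C2 and Foxa2-N3 overlap widely. Removing peaks that meet the Hnf4alpha-antibody library left 924 peaks in Foxa3-C2 and 940 in Foxa2-N3. The part of this unlike length in the shares was not tested. Foxa3-C2 (5.41%, 50 peaks) then fell below Foxa2-N3 (5.53%, 52 peaks), so that the sides no longer separated. Nor did they separate within 1 kb at equal length, where the shares were 1.46% for Foxa3-C1, 0.42% for Foxa3-C2 and 1.05% for each of the Foxa1/2-domain lists. Within 50 kb at equal length they did, at 20.2% and 19.5% against 15.1% for Foxa1-N3 and 17.8% for Foxa2-N3. They also did within 10 kb among the strongest 478 peaks, at 7.53% and 5.65% against 2.09% and 5.44% in the same order. In both of these settings the intervals of Foxa3-C2 and Foxa2-N3 overlapped.

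**Figure D5:**
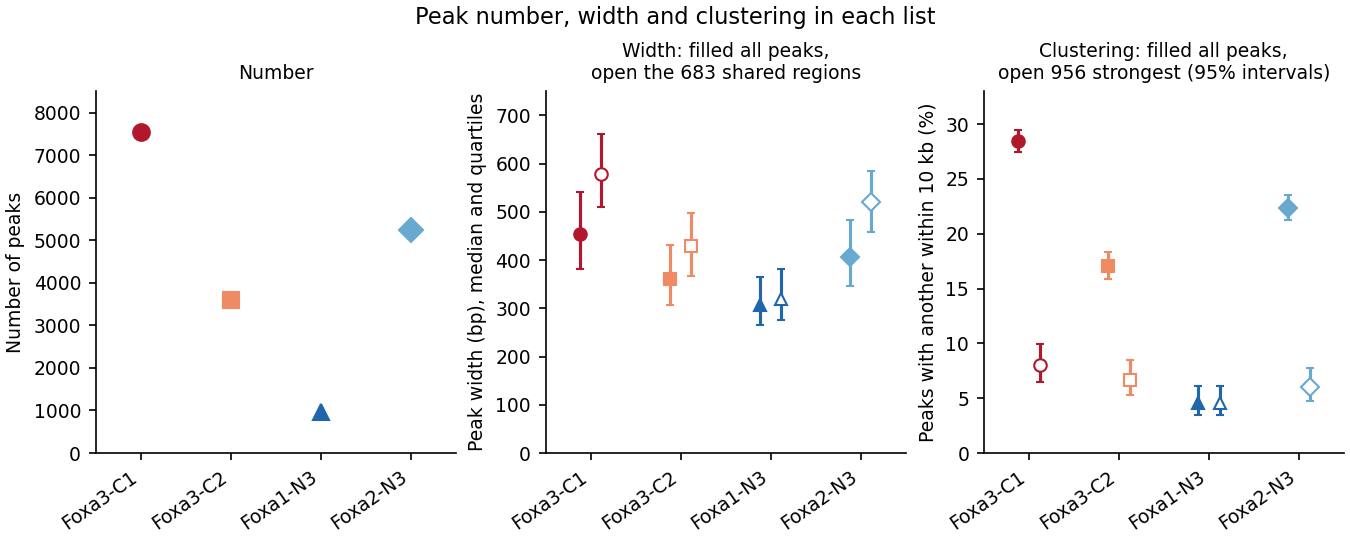
Number of peaks (left), peak width in bp (middle, median with quartiles, filled for all peaks and open for the 683 regions of all 4 lists) and percentage of peaks with another peak of the list within 10 kb (right, 95% Wilson intervals, filled for all peaks and open for the 956 strongest) in each list. In all 3 panels the filled symbols run from Foxa3-C1 through Foxa2-N3 and Foxa3-C2 down to Foxa1-N3, and at equal length the clustering shares lie between 4.60% and 8.05%.

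Regions of the 4 lists up to 10 kb apart formed 7957 chains, of which 1279 held at least 2 regions and 34 at least 5. The chain with the most peaks, chr13:23622872-23677913, covered 55.0 kb and held 14 peaks of Foxa3-C1, 10 of Foxa3-C2, 0 of Foxa1-N3 and 3 of Foxa2-N3. Of these peaks, 5 met the Hnf4alpha-antibody library. The second, chr12:55810959-55839895, held 6, 6, 1 and 6 peaks, of which 7 met that library, and it contains the region with the widest rank gap in favour of the Foxa3 domain. The third, chr5:90854082-90879553, held 7, 4, 1 and 6 peaks and none met that library. Another region lay within 10 kb for 33.5% of the regions of the Foxa3 domain alone (Wilson interval 30.1 to 37.0), 24.2% of those of the Foxa1/2 domains alone (12.8 to 41.0), 35.4% of those of all 4 lists and 31.1% of all regions. Neither one-sided class differed from all regions beyond counting error.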

How the data were processed

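Peak lists of 9 ChIP-seq libraries were used as deposited. Per the submitters' processing notes, reads were processed with BWA 0.6.2, MACS2 2.1.0 and bedtools 2.16.2 on genome build mm9. How peaks were thresholded and inputs used is not stated there. Each list gives, without a header, the position and name of a peak and a score set by the authors; the kind of score is not stated, so it was used only to rank or filter peaks within a list. Input libraries were not analysed here. Starts were converted to count from 1.

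Peaks overlapping by 1 bp were merged with Python 3.11.15, numpy 2.4.6 and pandas 2.3.3, and intervals and exact permutation tests were computed with scipy 1.17.1. Overlap counts were checked against bedtools 2.31.1, which gave equal numbers in 12 of 12 pairs, and the routine was also tested on simulated lists. Named regions were the 10 of best mean rank in all 4 lists, 8 per one-sided class, 5 per direction of rank difference, the 3 widest peaks per list (the leading ones are given) and the 3 chains with most peaks. The comparison, lists and rules were chosen with earlier results of these data known. Alternatives were equal length, a score above the pooled median of 16.8, merging within 1 kb, midpoints within 200 bp, other clustering distances, and leaving out each construct. Alternatives without sites of the Hnf4alpha-antibody library, and with the strongest 478 peaks, were chosen after seeing the data. The planned forkhead motif search, gene lists and protein comparison need an mm9 genome or annotation or protein sequences and were not run, so no gene or sequence is given.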

Additional observations from a re-analysis of the deposited data

Results flagged for a closer look

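The 2 matched pairs, which differ in the DNA-binding domain alone, went in opposite directions in 4 measures. With 1 library per construct none of these differences between the pairs was tested. Foxa3-C1 exceeded Foxa1-N3 by 2.98 in log2 peak number, whereas Foxa3-C2 minus Foxa2-N3 was -0.54. Median width differed by 148 bp in the pair with the Foxa1 C-terminus and by -46 bp in the pair with the Foxa2 C-terminus, and among the 956 strongest peaks by 306 bp and -76.5 bp. That cut leaves Foxa1-N3 whole, at 307 bp before and after, whereas the Foxa3-C1 median rises from 455 to 613 bp. At the 683 regions of all 4 lists the median difference was 247 bp in the first pair and -81 bp in the second. The percentage of peaks with another within 10 kb differed by 23.8 points in the first pair and by -5.33 points in the second. At 956 peaks a list this last measure went the same way in both pairs, by 3.45 and 0.63 points.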

How the results depend on the processing

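Results were recomputed under 64 combinations of result and alternative. The 714 regions of both Foxa3-domain lists alone became 129 at equal length, 336 with scores above the pooled median and 118 at equal length without sites of the Hnf4alpha-antibody library. The 33 regions of both Foxa1/2-domain lists alone became 102, 4 and 101 under the same alternatives, and 1152 without Foxa1-N3 at 3594 peaks a list, where the lone Foxa2-N3 list stands for its side. Leaving out each construct in turn, which asks for 1 list on the shortened side, gave 764 to 3929 and 43 to 1512 regions. It also gave a difference in log2 peak number of -0.0074 (without Foxa1-N3, where the direction turned) to 2.44, and 32.0% to 37.6% of regions ranked better with the Foxa3 domain and 33.8% to 38.0% with the Foxa1/2 domains. A side of 1 list is held to a looser rule for ranks, which by itself raises both shares. The clustering difference of 9.24 points with all peaks became 0.35 without Foxa1-N3 and 2.04 at equal length. The excess of Foxa3-N1 over Foxa1-C3 of 6.58 points at regions of the Foxa3 domain alone became -7.84 with the lists cut to one length. At regions of the Foxa1/2 domains alone the excess of 57.6 points became 48.5 with the lists cut to one length and 28.4 at regions of equal length. The causes of the last changes were not tested. By replicate number, no paired analysis was possible because each construct has a single library, numbered 1. Pairs matched on the C-terminal domain are compared above as values, with no test. The forkhead motif alternative with 100 central bases was not run. Read depth is unknown, and no peak says only that none was listed at the authors' threshold.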
